A study of Mus musculus with 2 samples.

Results

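The genes described here take up glucose, turn it into pyruvate and lactate, move lactate across the membrane, or regulate these steps. Of 35 genes listed for this set, 34 had a column among the 16184 genes of the deposited tables, and all 34 were taken; Eno2 is not analysed here. They were read in lung leukocytes of mice with HKP1 tumours, which grow from murine lung cancer cells injected into the tail vein. The study compared mice given diphtheria toxin (DT) with mice given PBS as control, with 1 single-cell RNA library of sorted, viable CD45+ cells in each group. All animals were Scgb1a1cre /iDTR mice, in which tamoxifen-induced Cre switches on a toxin receptor in cells that make Scgb1a1, the marker of club cells, so that the toxin removes those airway cells. The title names the question as how such club cells bear on immune checkpoint blockade after radiation.

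The DT group received 2 doses of diphtheria toxin at 600 ng per 20 g on days 8 and 9 after tumour injection, and the PBS group received PBS. Per the design text and protocols, both groups shared everything else: 150000 HKP1 cells, 5 daily tamoxifen doses (2 mg per 20 g, days 3 through 7), a single 250 µg dose of anti-PD-1 antibody per mouse on day 6, and lung radiation of 4 Gy daily over days 10 through 12. Lungs were taken 24 to 48 h after radiation. The design gives 4 mice per group, and no label ties a cell to a mouse. Ages are not given. Neither an animal without tamoxifen, antibody or radiation nor a mouse without tumour is part of the comparison.

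Glycolysis splits glucose into pyruvate in the cytosol, and lactate dehydrogenase can turn pyruvate into lactate, which monocarboxylate transporters carry out of the cell. Most steps are run by several isoforms that differ in affinity, regulation and tissue, so that a cell type can be described by the isoforms it transcribes. In leukocytes, neutrophils are known to rely on glycolysis with few mitochondria, and the hypoxia-inducible factor HIF-1, whose oxygen-regulated subunit Hif1a encodes, drives many of these genes in inflamed or oxygen-poor tissue.

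The libraries held 5896 DT cells and 5651 PBS cells after filtering, with a median of 3051.5 UMIs (counted RNA molecules) per DT cell and 3749 per PBS cell. In all, 8 cell barcodes occurred in both libraries. Club cell RNA differed between the libraries: 304 Scgb1a1 UMIs lay in 28 DT cells (0.475% of cells), against 1347 UMIs in 870 PBS cells (15.4%). The libraries also differed in the sex of the cells. Of the cells with Y-linked UMIs or Xist UMIs but not both, 31.9% were male-called in the DT library and 87.2% in the PBS library, so sex and toxin cannot be told apart between the libraries. A call needs a detected UMI of these genes, so called and uncalled cells can also differ in depth. With 1 library per group there is no measure of the spread between mice and no test. The intervals given are exact 95% counting intervals and cover counting error only.

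Levels are UMI counts scaled to the gate's total (CPM, counts per 1000000 UMIs) summed over the cells of a gate. A 3′ library counts each captured molecule once, so no scaling by gene length applies. Cells were gated on detected genes, and cells that also passed a gate of another lineage were left out. T cells were gated on Cd3e (1008 DT and 1097 PBS cells), and within them regulatory T cells on Foxp3 (126 DT and 119 PBS cells). NK cells were gated on Ncr1 (217 DT and 255 PBS cells), B cells on Cd79a (1064 DT and 1394 PBS cells) and neutrophils on Csf3r with S100a8 (1232 DT and 850 PBS cells). The mononuclear phagocyte gates overlap one another: Ly6c2 with Ccr2 (341 DT and 324 PBS cells), Treml4 (143 DT and 292 PBS cells), C1qa (405 DT and 306 PBS cells), Gpnmb (153 DT and 119 PBS cells) and Marco (19 DT and 51 PBS cells).

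Markers were summed by list to check the gates. The 6 NK markers summed to 18351 CPM in DT cells and 18288 CPM in PBS cells of the Ncr1 gate, against at most 1591 CPM in DT cells and 1412 CPM in PBS cells of any other gate. The 6 neutrophil markers summed to 51747 CPM in DT cells and 54768 CPM in PBS cells of the Csf3r and S100a8 gate, against at most 565 CPM in DT cells and 222 CPM in PBS cells elsewhere. Yet 11.6% of DT cells and 18.5% of PBS cells of that gate had a UMI of Treml4, Ace or Adgre4, nonclassical monocyte genes. Its 6 classical monocyte markers summed to 2206 CPM in DT cells and 2839 CPM in PBS cells. The word neutrophils stands here for all cells of that gate. The mononuclear gates were less distinct. The 6 classical monocyte markers summed to 6657 CPM in DT cells and 6932 CPM in PBS cells of the Ly6c2 and Ccr2 gate, below the Marco gate at 22723 CPM in DT cells and 25696 CPM in PBS cells. Chil3 is on both this list and the list of alveolar macrophage markers, so a high sum in the Marco gate can come from that gene. The 6 C1q macrophage markers summed to 11651 CPM in DT cells and 12760 CPM in PBS cells of the C1qa gate, and to 14921 CPM in DT cells and 10644 CPM in PBS cells of the Gpnmb gate. In the Treml4 gate the 6 nonclassical monocyte markers summed to 706 CPM in DT cells and 1488 CPM in PBS cells, below the Marco gate, where they summed to 850 CPM in DT cells and 1959 CPM in PBS cells, and the C1q macrophage markers to 4302 CPM in DT cells and 2113 CPM in PBS cells. These gates are called by their gate genes throughout.

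Neutrophils stood apart at both ends of the pathway, glucose entry and lactate exit. Of the 34 genes, 7 were highest in the Csf3r and S100a8 gate in both libraries: the glucose transporters Slc2a1, Slc2a3 and Slc2a6, the isomerase Gpi1, the regulatory kinase gene Pfkfb3, the lactate exporter Slc16a3 and the phosphoglucomutase Pgm2. The share of all genes that were highest there is not given. Slc16a3, which encodes the high-capacity lactate exporter MCT4, had 444 CPM in DT neutrophils and 432 CPM in PBS neutrophils, and its next gate, Treml4, had 72.0 CPM in DT cells and 95.4 CPM in PBS cells. Slc2a3, which encodes the high-affinity transporter GLUT3, had 187 CPM in DT neutrophils and 199 CPM in PBS neutrophils. Its next gate was Ncr1, at 31.7 CPM in DT cells and 34.4 CPM in PBS cells, a level 5.89-fold below the neutrophil level in the DT library and 5.79-fold below it in the PBS library. In GRCm38, Slc16a3 spans chr11:120948480-120960868 on the plus strand and Slc2a3 chr6:122727809-122801640 on the minus strand, both protein-coding. For both genes, and for Slc2a1, Slc2a6 and Gpi1, the counting intervals of the highest and the next gate did not overlap in either library. For Pfkfb3 and Pgm2 they overlapped in both libraries.

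**Figure D1:**
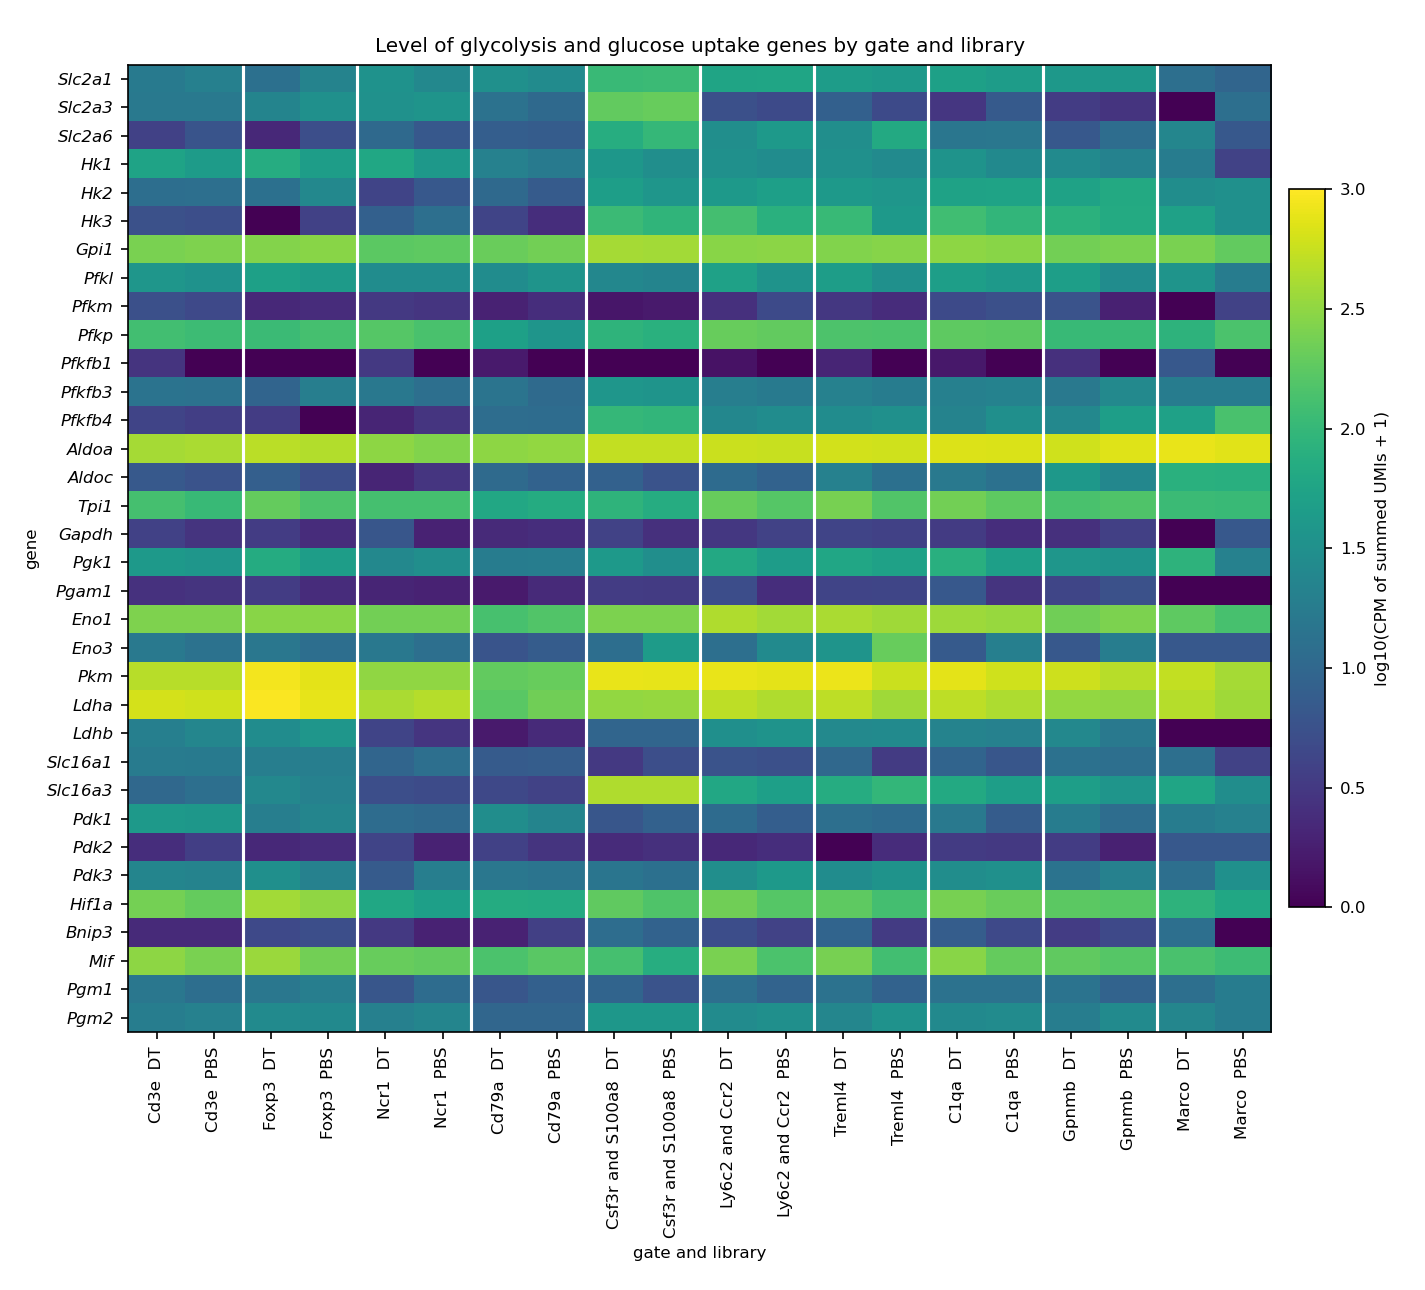
Levels of the 34 genes (rows) in 10 gates, with the DT library left of the PBS library in each gate, as log10 of CPM of summed UMIs plus 1. Slc2a3, Slc16a3 and Pfkfb4 are bright in the Csf3r and S100a8 columns, Hk3 is dark in the Cd3e, Foxp3, Ncr1 and Cd79a columns, and Gapdh and Pgam1 are dark in nearly every column.

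Slc2a1, which encodes the widely used transporter GLUT1, reached 108 CPM in DT neutrophils and 110.0 CPM in PBS neutrophils, and the next gate, Ly6c2 and Ccr2, had 55.5 CPM in DT cells and 57.7 CPM in PBS cells. Slc2a6, a transporter of lysosomes and inflammatory macrophages, had 72.8 CPM in DT neutrophils and 98.8 CPM in PBS neutrophils, followed by 29.2 CPM in DT cells and 66.1 CPM in PBS cells of the Treml4 gate. Among the 3 transporters, Slc2a3 thus held 50.9% of the UMIs in DT neutrophils and 48.8% in PBS neutrophils. In the Ly6c2 and Ccr2 gate Slc2a3 held 5.00% in DT cells and 3.62% in PBS cells, and Slc2a1 led with 62.3% in DT cells and 56.9% in PBS cells. Slc2a1 also led in the C1qa gate, with 75.5% in DT cells and 68.2% in PBS cells, and in B cells, with 61.2% in DT cells and 62.8% in PBS cells. T cells carried both transporters about equally, with Slc2a3 at 45.4% in DT cells and 39.1% in PBS cells.

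The part of free neutrophil RNA in the low levels elsewhere was not tested. S100a8, the neutrophil gate gene, stood in the Cd3e gate at 0.0817% of its neutrophil level in the DT library and 0.0501% in the PBS library. Cells with both Csf3r and S100a8 were left out of that gate, which by itself lowers its S100a8. Slc16a3 in the Cd3e gate was at 2.12% of its neutrophil level in the DT library and 2.68% in the PBS library, and Slc2a3 was at 8.30% in the DT library and 7.78% in the PBS library.

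Hexokinases, which trap glucose by phosphorylation, split the lineages into a lymphoid and a myeloid side. Hk1, the broadly used form bound to mitochondria, held 77.3% of hexokinase UMIs in DT T cells and 73.3% in PBS T cells. Its share was 85.1% in DT NK cells and 69.5% in PBS NK cells, and 61.2% in DT B cells and 68.2% in PBS B cells. In neutrophils, Hk1 held 19.1% in the DT library and 18.6% in the PBS library.

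Hk3, the form of myeloid cells, took the place of Hk1 in every myeloid gate. It held 56.4% of hexokinase UMIs in DT neutrophils and 58.0% in PBS neutrophils, and 57.9% in DT cells and 54.5% in PBS cells of the C1qa gate. Its level was 109.8 CPM in DT neutrophils and 91.6 CPM in PBS neutrophils, against 4.61 CPM in DT T cells and 4.24 CPM in PBS T cells. Hk2, the inducible form tied to cell growth and hypoxia, was highest in the Gpnmb gate, with 53.0 CPM in DT cells and 65.3 CPM in PBS cells, but the C1qa gate at 52.1 CPM in DT cells and 53.5 CPM in PBS cells did not differ from it beyond the counting intervals.

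**Figure D2:**
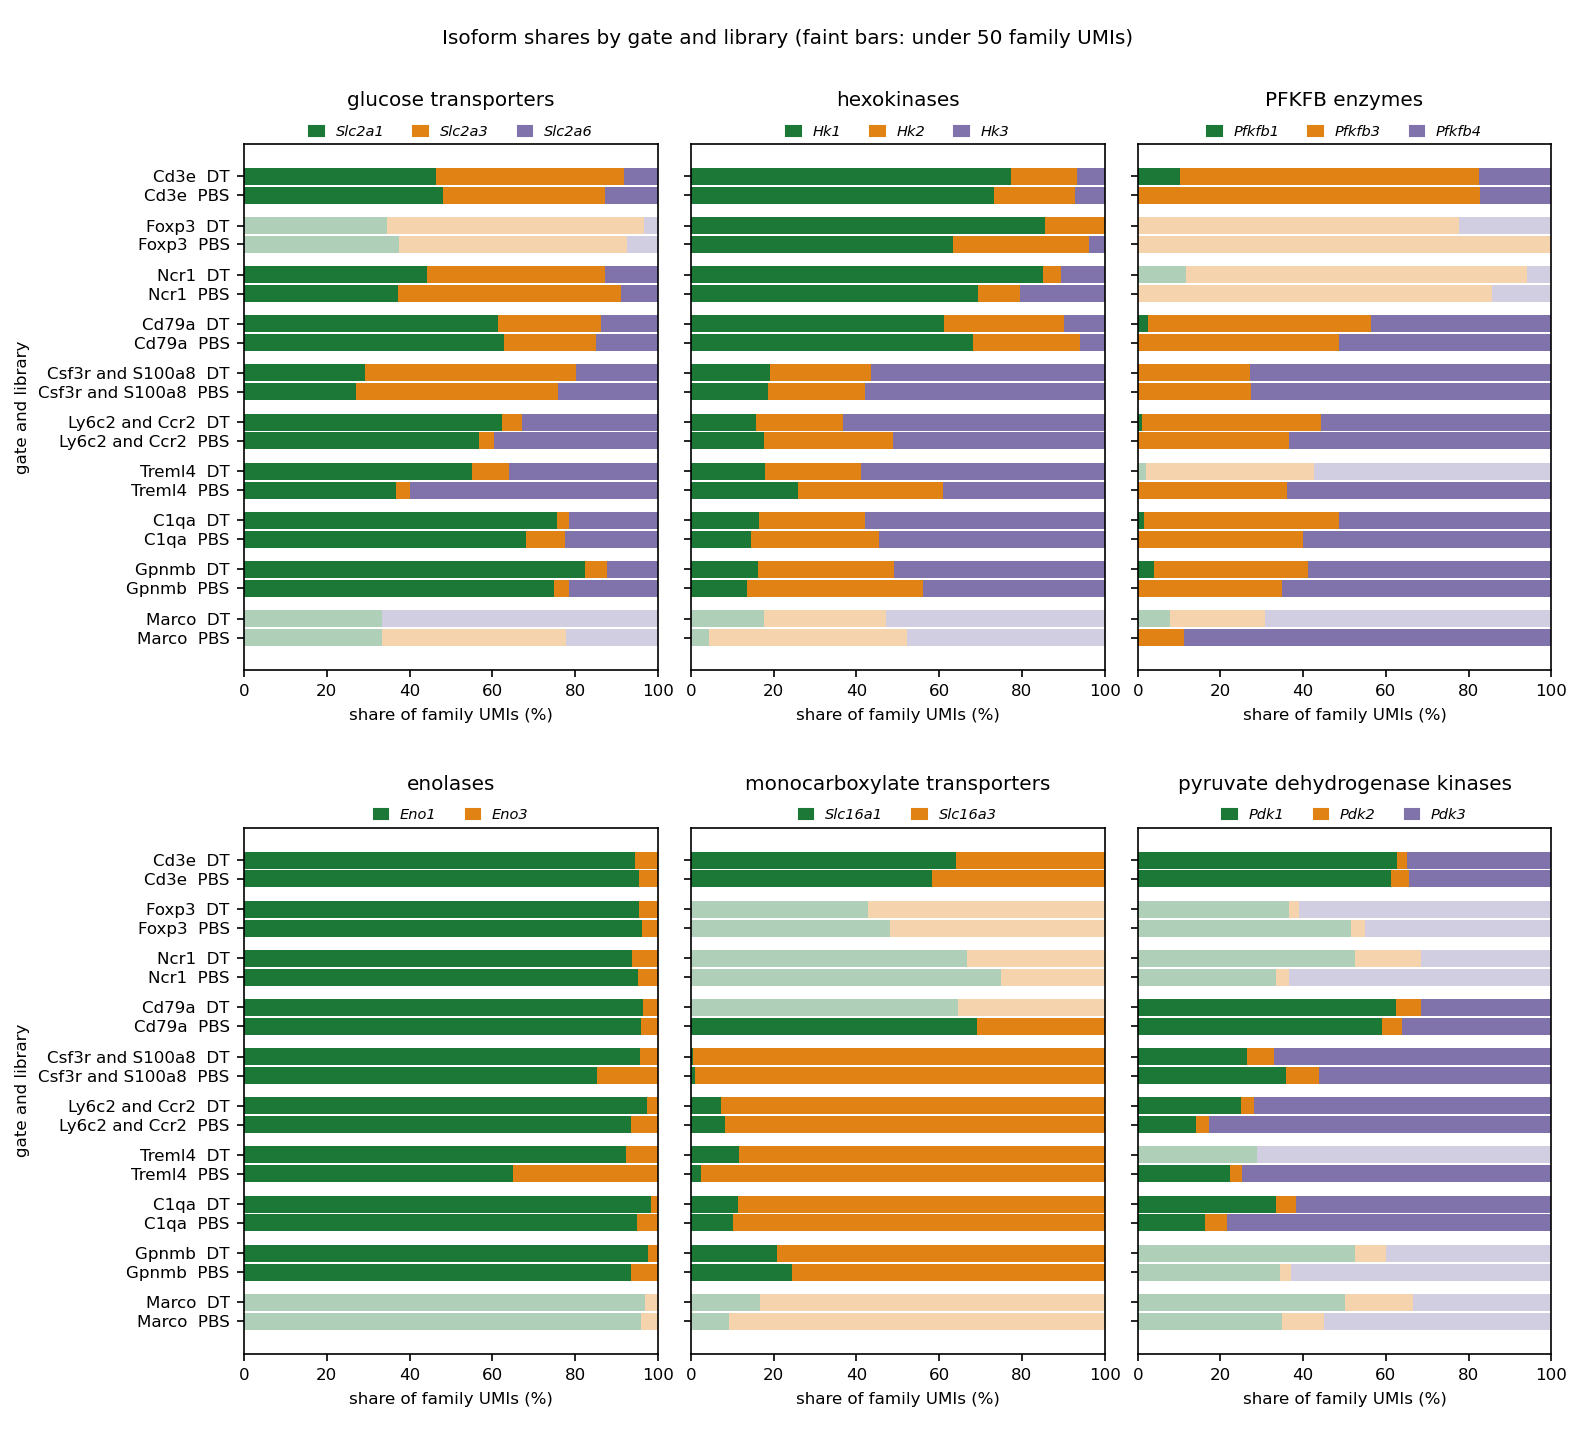
Shares of UMIs (x axis, %) of each isoform within 6 gene families, with the gates down the y axis and the DT library above the PBS library in each; faint bars rest on under 50 family UMIs. Hk1 leads in the lymphoid gates and Hk3 in the myeloid ones, and Slc16a3 fills nearly the whole bar of the Csf3r and S100a8 gate.

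Phosphofructokinase, the committed step, was mostly Pfkp, the platelet-type subunit, in all 10 gates of both libraries. Pfkp held 75.1% of the family's UMIs in DT T cells and 75.8% in PBS T cells. Its share was lowest in B cells, at 63.9% in the DT library (interval 57.6 to 69.8%) and 50.1% in the PBS library (interval 45.1 to 55.2%), where Pfkl, the liver-type subunit, held 34.9% in DT cells and 47.8% in PBS cells. Pfkp was highest in the Ly6c2 and Ccr2 gate, with 202 CPM in DT cells and 191 CPM in PBS cells. Its interval there overlapped that of the next gate, C1qa, in both libraries. Pfkm, the muscle subunit, stayed at or below 4.89 CPM in every DT gate and 4.34 CPM in every PBS gate.

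The PFKFB enzymes set the level of fructose-2,6-bisphosphate, the activator of phosphofructokinase, and their isoforms also differed by lineage. Pfkfb4 held 72.9% of the family in DT neutrophils and 72.7% in PBS neutrophils, at 98.6 CPM in DT cells and 93.3 CPM in PBS cells. In T cells Pfkfb4 had 3.14 CPM in the DT library and 2.61 CPM in the PBS library, and Pfkfb3, the form with the strongest kinase activity, led there with 72.2% in DT cells and 82.8% in PBS cells. B cells were evenly split, with Pfkfb3 at 53.8% in DT cells and 48.6% in PBS cells. The Marco gate also had Pfkfb4, at 51.4 CPM in 19 DT cells and 137 CPM in 51 PBS cells. Pfkfb1, the liver and muscle form, had 32 UMIs in the DT library and was listed at 0 in every PBS cell. In all, 601 genes were listed at 0 throughout the PBS library, and 320 of these had a UMI in more than 20 DT cells. Another 430 genes were listed at 0 throughout the DT library, so no fold is given for Pfkfb1.

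The trunk enzymes were transcribed in all gates. Aldoa, the main aldolase, had 788 CPM in DT cells and 734 CPM in PBS cells of the Marco gate at its highest and 304 CPM in DT B cells and 322 CPM in PBS B cells. In both libraries its Marco interval overlapped that of the next gate. B cells were the lowest gate in both libraries for 7 genes: Pfkp, Tpi1, Pgk1, Pkm, Ldha, Slc16a3 and Pgm2. The share of all genes that were lowest in B cells is not given. Pkm, which encodes the pyruvate kinase of leukocytes and makes pyruvate, had 189 CPM in DT B cells and 198 CPM in PBS B cells, against 791 CPM in DT neutrophils and 767 CPM in PBS neutrophils. Tpi1, which interconverts the triose phosphates, had 61.9 CPM in DT B cells and 69.6 CPM in PBS B cells, against 229.6 CPM in DT cells and 181 CPM in PBS cells of the C1qa gate.

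Aldoc, an aldolase best known from brain, was a minor form with a distinct place. It reached 79.9 CPM in DT cells and 77.1 CPM in PBS cells of the Marco gate and 39.1 CPM in DT cells and 23.3 CPM in PBS cells of the Gpnmb gate, against 5.91 CPM in DT T cells and 4.89 CPM in PBS T cells. Its share of aldolase UMIs in the Marco gate was 9.21% in DT cells and 9.51% in PBS cells, from 152 DT and 284 PBS family UMIs. The Gpnmb and Marco gates share 14 DT cells and 16 PBS cells.

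Several trunk genes could not be read at face value. Gapdh, which encodes the dehydrogenase often used as a loading control, had 2.77 CPM over all DT cells and 1.90 CPM over all PBS cells, and ranked 12363 of 16184 genes in the DT library and 13224 in the PBS library. Of the 50-base windows in the last 500 bases of its transcripts, 90.5% also occur in 138 other annotated genes, 130 of them processed pseudogenes. The same share was 75.2% for Eno1, 56.1% for Mif, 24.4% for Ldhb and 7.32% for Pgk1. How reads matching several genes were counted is not given in the sources used here, so levels of these genes are uncertain. Pgam1, the phosphoglycerate mutase, also stood low, at 2.56 CPM over DT cells and 1.87 CPM over PBS cells, while none of its end windows occurred in another annotated gene.

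Lactate dehydrogenase was mostly Ldha, the subunit that favours lactate, with 97.2% of the family in DT T cells and 96.4% in PBS T cells. Ldhb, the subunit of oxidative tissues, reached 5.68% in DT cells and 7.12% in PBS cells of the Ly6c2 and Ccr2 gate, and 0.367% in DT B cells and 0.572% in PBS B cells. On the export side, Slc16a3 held 99.5% of the 2 monocarboxylate transporters in DT neutrophils and 99.0% in PBS neutrophils. Slc16a1, which encodes the transporter MCT1 of proliferating cells, led in T cells, with 64.1% in DT cells and 58.2% in PBS cells. Its level there was 16.8 CPM in DT cells and 16.2 CPM in PBS cells, against 2.13 CPM in DT neutrophils and 4.25 CPM in PBS neutrophils.

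Pyruvate dehydrogenase kinases keep pyruvate out of mitochondria, and they split by lineage as well. Pdk1, the HIF-1 target of the family, was highest in T cells, at 39.9 CPM in DT cells and 37.4 CPM in PBS cells, and held 62.8% of the family there in the DT library and 61.2% in the PBS library. In both libraries its T cell interval overlapped that of the next gate. Pdk3 led in the Ly6c2 and Ccr2 gate, with 72.0% in DT cells and 82.8% in PBS cells. Pdk2 stayed at or below 5.71 CPM in every gate of both libraries. Pgm2 outnumbered Pgm1, another enzyme that links glycolysis to glycogen, in neutrophils, with 37.5 CPM in DT cells and 37.3 CPM in PBS cells against 8.24 CPM of Pgm1 in DT cells and 4.91 CPM in PBS cells.

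Regulatory T cells had the most Ldha, Hk1, Slc16a1 and Hif1a of the 10 gates in both libraries. Ldha had 952 CPM in DT cells and 768 CPM in PBS cells of the Foxp3 gate, against 639 CPM in DT cells and 609 CPM in PBS cells of the whole Cd3e gate, which holds the Foxp3 cells. Hif1a had 378 CPM in DT cells and 315 CPM in PBS cells, and the next gate, C1qa, had 239 CPM in DT cells and 203 CPM in PBS cells. For Ldha and Hif1a the intervals of the highest and the next gate did not overlap in either library, while for Hk1 and Slc16a1 they did. Cells with a UMI of 1 of 6 cell cycle genes made up 31.7% of the Foxp3 gate in the DT library and 31.1% in the PBS library, against 19.3% of the Cd3e gate in the DT library and 18.2% in the PBS library. Their part in these levels was not tested. Bnip3, a mitophagy gene and HIF-1 target, stayed at or below 11.4 CPM in DT gates and 7.85 CPM in PBS gates.

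The order of the gates was alike in the DT and PBS libraries for many members. For 19 of the 34 genes the same gate was highest in both. Among the 19 was Pdk2, highest in the Marco gate at 5.71 CPM in each library, where its interval overlapped that of the next gate. Neutrophils were highest for 8 members in the DT library and 9 in the PBS library, and B cells for 0 in either. No share over all genes is given for these counts. Hk3 was highest in the Ly6c2 and Ccr2 gate in the DT library and in the C1qa gate in the PBS library, and the intervals of those gates overlapped in both libraries.

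In the Cd3e gate, where 4.12% of all genes with at least 50 UMIs were at least 1.5-fold higher in DT cells and 2.38% were at least 1.5-fold lower, 0 of 26 members were called in either direction. The median log2 ratio of DT over PBS, with 5 CPM added to both sides, was 0.06 over 32 members and 0.04 over all genes. It changed sign with the sex call: among male-called T cells it was -0.22, with 7 of 27 members above 0, and among female-called T cells 0.57, with 22 of 27 above 0. Over all genes the median was -0.01 among male-called T cells and 0.12 among female-called ones. In the Foxp3 gate the median was 0.07 over 24 members and 0.04 over all genes. Among female-called cells, of which the PBS library had 5, it was 0.68 over members and 0.28 over all genes. Among regulatory T cells, 7% of genes were called higher and 4.89% lower, and 2 of 12 members were called higher and 0 lower. They were Mif, which encodes a secreted inflammatory cytokine, and Hk1. Mif had 354 CPM in DT cells and 228 CPM in PBS cells, a ratio of 1.56 (interval 1.28 to 1.90), and Hk1 had 71.8 CPM in DT cells and 46.4 CPM in PBS cells, a ratio of 1.55 (interval 0.997 to 2.45).

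In the Ncr1 gate 4.31% of genes were called higher and 4.56% lower, and of 14 members Hk1 alone was called higher and 0 lower. Hk1 had 60.2 CPM in DT cells and 39.2 CPM in PBS cells (ratio 1.54, interval 1.01 to 2.36). In the Cd79a gate 9.05% of genes were called higher and 3.4% lower, and of 25 members Hk2 alone was called higher and 0 lower. Hk2 there rested on 30 DT UMIs and 34 PBS UMIs, with a ratio of 1.53 (interval 0.902 to 2.57). Ldha had 172 CPM in DT B cells and 222 CPM in PBS B cells, 1.29-fold lower (interval 1.17 to 1.43), while Pfkp had 50.2 CPM in DT B cells and 36.0 CPM in PBS B cells, a ratio of 1.40 (interval 1.13 to 1.73), and Pdk1 28.7 CPM in DT B cells and 21.5 CPM in PBS B cells, a ratio of 1.33 (interval 1.00 to 1.77). Mif was lower in DT B cells, with 141 CPM against 171 CPM in PBS B cells (ratio 0.824, interval 0.734 to 0.923), and B cells were the single gate of 10 where its ratio was below 1. The difference in Ldha turned round in female-called cells, at a ratio of 1.11, and that in Pfkp turned round in means of the deposited values. Other markers moved with the Cd79a gate: the 6 B cell markers summed to 8886 CPM in DT cells and 13373 CPM in PBS cells, the 5 epithelial and club markers to 1079.8 CPM in DT cells and 86.2 CPM in PBS cells, the 2 red cell markers to 334 CPM in DT cells and 6.39 CPM in PBS cells, and the 6 alveolar macrophage markers to 17.7 CPM in DT cells and 170.4 CPM in PBS cells. Their part in these ratios was not tested.

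Hk1 was on the higher side in DT cells in each of the 9 gates where it had at least 20 UMIs, with log2 ratios between 0.15 and 0.58. Its interval left out 1 in 2 of them, Cd3e and Ncr1. In T cells Hk1 had 53.3 CPM in the DT library and 43.1 CPM in the PBS library (ratio 1.24, interval 1.04 to 1.47). Hif1a was likewise on the higher side in all 10 gates, with log2 ratios between 0.02 and 0.48 and an interval without 1 in 6 gates. Its ratio turned round among male-called cells of the Ly6c2 and Ccr2 gate. In the Treml4 gate it turned round in cells with Ace and in means of the deposited values. The share of all genes that were higher in every gate is not given. The Foxp3 gate lies within the Cd3e gate and the mononuclear gates overlap, so these gates are not separate samples.

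In neutrophils Slc16a3 had a ratio of 1.03 (interval 0.955 to 1.10), Slc2a3 of 0.937 (interval 0.840 to 1.05) and Pfkfb4 of 1.06 (interval 0.903 to 1.24). By sex call, Slc16a3 had 522 CPM (interval 470.4 to 577) in DT cells and 341 CPM (interval 311 to 372) in PBS cells among male-called neutrophils, and 479 CPM (interval 451 to 508) in DT cells and 531 CPM (interval 495 to 569) in PBS cells among uncalled ones. Of all genes, 5.7% were called higher and 5.77% lower, and of 25 members Mif was called higher and Eno3, the muscle-type enolase, lower. Mif had 129.7 CPM in DT neutrophils and 73.0 CPM in PBS neutrophils, a ratio of 1.78 (interval 1.51 to 2.09). Pgk1, the phosphoglycerate kinase that makes the first ATP of the pathway, had 40.9 CPM in DT neutrophils and 29.5 CPM in PBS neutrophils (ratio 1.39, interval 1.06 to 1.82), and Hk2 had 47.6 CPM in DT neutrophils and 37.0 CPM in PBS neutrophils (ratio 1.29, interval 1.01 to 1.64). Slc2a6 was 1.36-fold lower in DT neutrophils (interval 1.15 to 1.60). Among male-called neutrophils alone these 4 turned round: the ratio was 0.672 for Mif, 0.847 for Pgk1, 0.915 for Hk2 and 1.02 for Slc2a6. Male-called neutrophils had a median of 2442 UMIs in the DT library and 3448.5 in the PBS library, and uncalled ones 2058 in the DT library and 2181.5 in the PBS library. Female-called DT neutrophils had 4824. The part of depth and cell make-up in the ratios by sex call was not tested. Among female-called neutrophils Hk2 had a ratio of 0.877. The 5 epithelial and club markers summed to 17.5 CPM in DT neutrophils and 1111 CPM in PBS neutrophils, and the 6 C1q macrophage markers to 832 CPM in DT neutrophils and 541 CPM in PBS neutrophils, and their part in these ratios was not tested.

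Of the mononuclear gates, Mif was called higher in DT cells of the Treml4 gate, the C1qa gate and the Ly6c2 and Ccr2 gate. Hk3 was called higher in the Treml4 gate and in the Ly6c2 and Ccr2 gate. Neither was called in the Gpnmb gate. In the Ly6c2 and Ccr2 gate 4.61% of genes were called higher and 3.26% lower, and of 24 members 3 were called higher (Mif, Hk3 and Pfkl) and 1 lower (Eno3). Mif had 246 CPM in DT cells and 139 CPM in PBS cells (ratio 1.77, interval 1.55 to 2.02). Hk3 had 125 CPM in DT cells and 80.1 CPM in PBS cells (ratio 1.56, interval 1.31 to 1.87). Pfkl had 50.7 CPM in DT cells and 33.4 CPM in PBS cells (ratio 1.52, interval 1.15 to 2.01).

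Below the 1.5-fold line, Pgk1 (ratio 1.41, interval 1.11 to 1.80) and Hif1a (ratio 1.38, interval 1.22 to 1.57) were higher in DT cells of that gate, and Slc2a6 (1.37-fold, interval 1.01 to 1.87) and Pdk3 (1.40-fold, interval 1.03 to 1.91) were lower. The median log2 ratio was 0.13 over 28 members and 0.01 over all genes. Among male-called cells the median was -0.32 over members and -0.01 over all genes. The ratios there were 0.744 for Mif, 0.643 for Pfkl, 0.629 for Pgk1, 0.835 for Hif1a and 1.04 for Hk3. The 2 red cell markers summed to 543 CPM in DT cells and 3.31 CPM in PBS cells of this gate, and their part was not tested.

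In the Treml4 gate 8.72% of genes were called higher and 9.81% lower, and of 23 members 3 were called higher (Hk3, Mif and Tpi1) and 2 lower (Eno3 and Slc2a6). Hk3 had 103 CPM in DT cells and 40.4 CPM in PBS cells (ratio 2.56, interval 1.90 to 3.45). Mif had 241 CPM in DT cells and 121 CPM in PBS cells (ratio 1.99, interval 1.66 to 2.38), and Tpi1 had 241 CPM in DT cells and 154 CPM in PBS cells (ratio 1.56, interval 1.32 to 1.85). Slc2a6 had 29.2 CPM in DT cells and 66.1 CPM in PBS cells, 2.26-fold lower (interval 1.5 to 3.52).

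Beside these values stands the make-up of the gate. A UMI of Ace, a nonclassical monocyte marker, lay in 41 DT cells (28.7%) and 158 PBS cells (54.1%), and 36 DT cells (25.2%) and 34 PBS cells (11.6%) also passed the C1qa gate. Restricted to cells with Ace, a setting chosen after the values were seen, the ratio was 1.75 for Hk3, 1.38 for Mif, 1.03 for Tpi1 and 0.563 for Slc2a6, and that of Hif1a turned round to 0.651. Pkm and Hif1a were higher in DT cells of the gate as a whole (ratio 1.39, interval 1.27 to 1.53, and ratio 1.40, interval 1.15 to 1.70). In means of the deposited values per cell the direction of Tpi1, Hif1a and Pkm turned round. Slc16a3 was 1.33-fold lower in DT cells of the gate (interval 1.01 to 1.77), and it turned round when cells of 2 lineages were kept and among female-called cells.

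In the C1qa gate 4.37% of genes were called higher and 2.74% lower, and of 26 members 3 were called higher (Pdk1, Pgk1 and Mif) and 1 lower (Eno3). Pdk1 had 15.3 CPM in DT cells and 6.50 CPM in PBS cells (ratio 2.35, interval 1.35 to 4.26). Pgk1 had 77.2 CPM in DT cells and 47.7 CPM in PBS cells (ratio 1.62, interval 1.31 to 2.01), and Mif had 294 CPM in DT cells and 195 CPM in PBS cells (ratio 1.51, interval 1.36 to 1.68). Pkm, at 747 CPM in DT cells and 608 CPM in PBS cells, and Ldha, at 502 CPM in DT cells and 425 CPM in PBS cells, were 1.23-fold (interval 1.16 to 1.31) and 1.18-fold (interval 1.10 to 1.27) higher. Of the earlier steps, Gpi1 (ratio 1.06), Pfkp (1.02) and Aldoa (1.03) had intervals that held 1, but Tpi1 was higher (ratio 1.27, interval 1.13 to 1.42). Among the hexokinases Hk3 was higher (ratio 1.249, interval 1.07 to 1.46), while Hk1 (1.33) and Hk2 (0.975) had intervals that held 1. Eno1, a later step, also had an interval that held 1 (ratio 1.06). Hk3, Pkm and Ldha lay below the lowest ratio set for named members. The median log2 ratio was 0.16 over 31 members, 22 of them above 0, and 0.03 over all genes. In male-called cells the median was -0.11 over members and 0.05 over all genes. The Mif ratio there was 0.996, while Pgk1 had a ratio of 1.60. Slc16a3 was 1.37-fold higher in DT cells of the gate (interval 1.10 to 1.71), and it turned round to 0.787 with each cell thinned to 1000 UMIs.

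**Figure D3:**
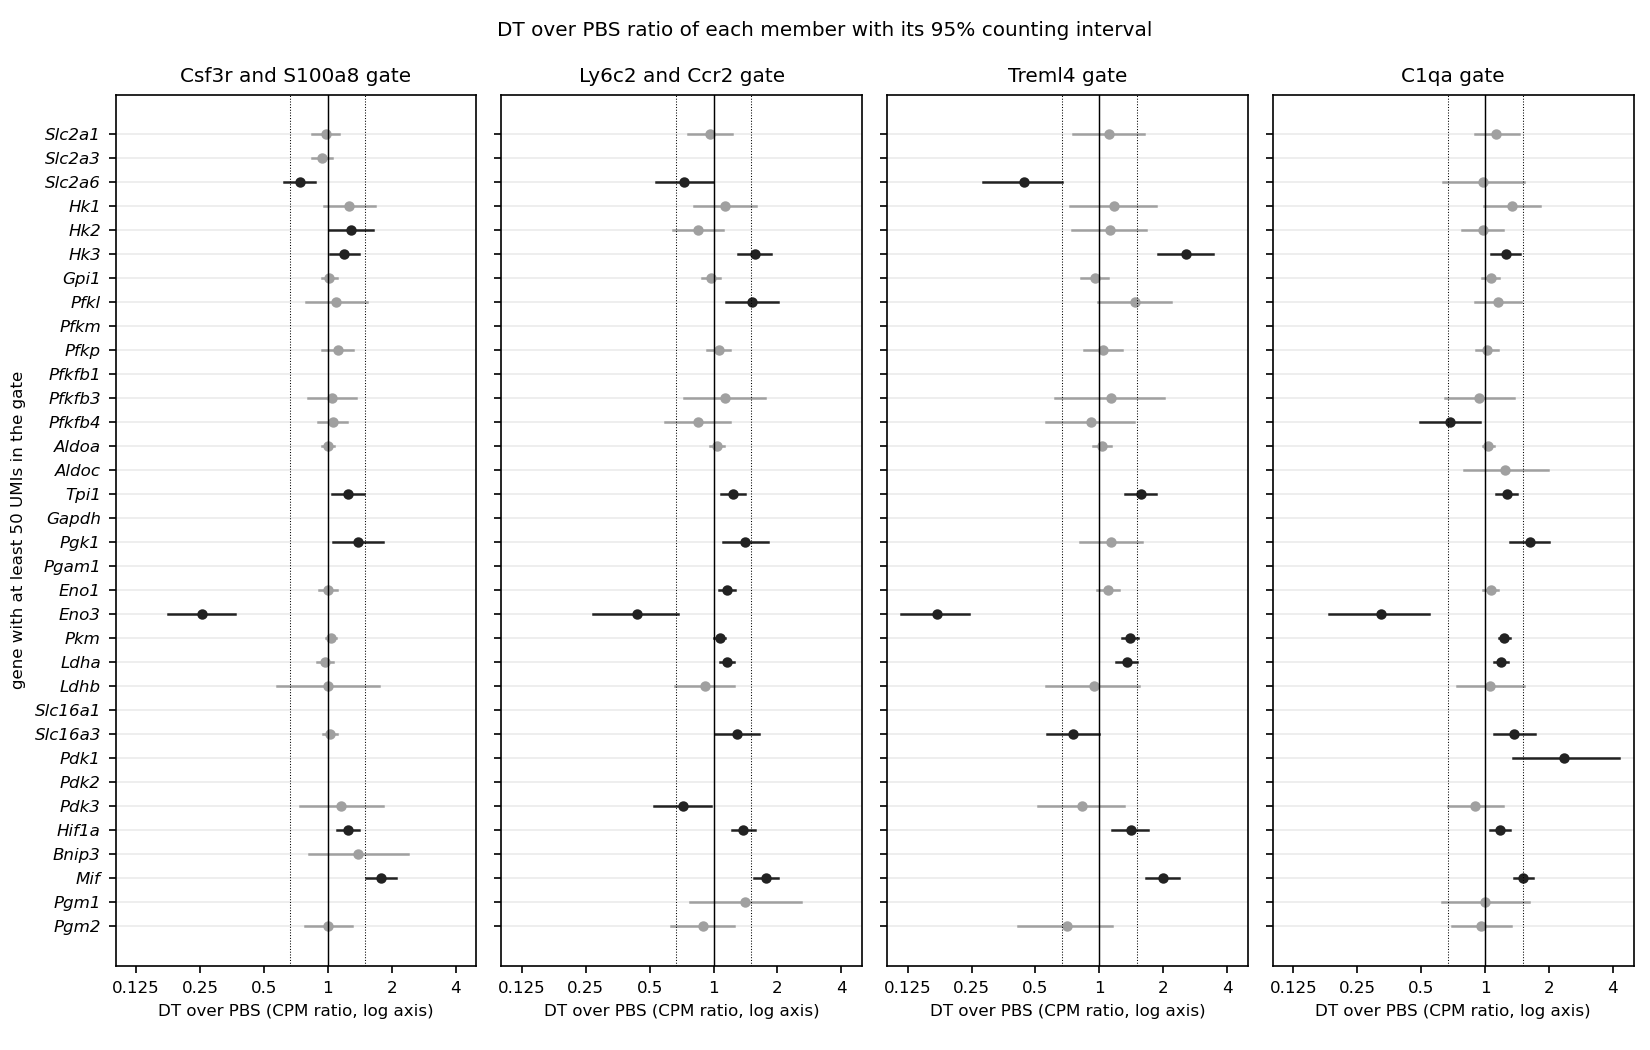
DT over PBS ratio of CPM (x axis, log scale) for each member with at least 50 UMIs in 4 gates; lines are 95% counting intervals, black where they leave out 1, and dotted lines mark 1.5-fold either way. Eno3 lies left of the lower dotted line in all 4 gates, and Mif lies at or right of the upper one in all 4.

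In the Gpnmb gate 7.53% of genes were called higher and 3.53% lower, and of 19 members 2 were called higher (Aldoc and Pfkl) and 1 lower (Pfkfb4). Aldoc had 39.1 CPM in DT cells and 23.3 CPM in PBS cells (ratio 1.68, interval 1.02 to 2.82), from 48 DT and 26 PBS UMIs, and it turned round among female-called cells, at a ratio of 0.753, and in means of the deposited values. Pfkfb4 had 24.4 CPM in DT cells and 46.5 CPM in PBS cells, 1.90-fold lower (interval 1.19 to 3.09). It was also lower in DT cells of the Marco gate, which had too few cells for calls, by 2.67-fold (interval 1.30 to 6.19) on 9 DT and 48 PBS UMIs, and in the C1qa gate by 1.46-fold (interval 1.06 to 2.03). In neutrophils the Pfkfb4 interval held 1. The 6 B cell markers summed to 44.8 CPM in DT cells and 2628 CPM in PBS cells of the Gpnmb gate, and their part in these ratios was not tested.

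Among the members called, Eno3 had the largest ratio between the libraries, and it was called lower in the DT library in 4 gates. In the Treml4 gate, where it was highest, Eno3 had 34.4 CPM in DT cells (33 UMIs) and 201 CPM in PBS cells (439 UMIs), 5.85-fold lower (interval 4.10 to 8.61). It held 7.75% of enolase UMIs in DT cells and 35.0% in PBS cells of that gate, the rest being Eno1. Eno3 was also lower in DT cells of the Csf3r and S100a8 gate, with 11.2 CPM against 43.5 CPM in PBS cells (3.90-fold, interval 2.74 to 5.66). It was lower too in the C1qa gate (3.11-fold, interval 1.84 to 5.43) and in the Ly6c2 and Ccr2 gate (2.30-fold, interval 1.47 to 3.70). It was also lower in the Gpnmb gate, on 7 DT and 20 PBS UMIs (3.14-fold, interval 1.27 to 8.78), too few for a call. In T cells it had 15.3 CPM in DT cells and 12.4 CPM in PBS cells (ratio 1.24, interval 0.894 to 1.71). T cells are split by nonclassical monocyte genes below. Among female-called cells the intervals of both libraries overlapped in these 4 called gates. There Eno3 had 20.6 CPM (interval 11.2 to 34.5) in 111 DT neutrophils and 0 UMIs in 10 PBS neutrophils (upper bound 66.0 CPM). In the Ly6c2 and Ccr2 gate it had 10.3 CPM (interval 5.64 to 17.3) in female-called DT cells and 6.27 CPM (interval 0.159 to 34.9) in 25 female-called PBS cells. In the C1qa gate it had 7.40 CPM (interval 4.23 to 12.0) in female-called DT cells and 0 UMIs in 36 female-called PBS cells (upper bound 14.5 CPM), and in the Treml4 gate 17.0 CPM (7 UMIs) in female-called DT cells and 42.7 CPM (2 UMIs) in 8 female-called PBS cells.

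In the Csf3r and S100a8 gate and in the Ly6c2 and Ccr2 gate, the lower Eno3 level lay in cells with nonclassical monocyte genes. This split was chosen after the values were seen. In cells of the Csf3r and S100a8 gate with a UMI of Treml4, Ace or Adgre4, Eno3 had 40.8 CPM in the DT library and 133 CPM in the PBS library. In cells of that gate without one it had 4.55 CPM (interval 2.49 to 7.64) in the DT library and 5.14 CPM (interval 2.57 to 9.19) in the PBS library. Cells with such a UMI made up 11.6% of the gate in the DT library and 18.5% in the PBS library. In the Ly6c2 and Ccr2 gate, cells with a UMI of these genes had 26.6 CPM in the DT library and 68.7 CPM in the PBS library, and cells without one had 7.21 CPM (interval 3.94 to 12.1) in the DT library and 4.95 CPM (interval 2.26 to 9.39) in the PBS library. In the Cd3e gate, cells without one had 15.0 CPM (interval 11.9 to 18.7) in the DT library. In the PBS library they had less, at 8.66 CPM (interval 6.43 to 11.4). Cells of that gate with one had 24.8 CPM in the DT library and 73.3 CPM in the PBS library. C1qa gate cells without one had 6.66 CPM in the DT library and 10.3 CPM in the PBS library, with overlapping intervals. Those with one had 3.23 CPM (2 UMIs) in the DT library and 55.0 CPM in the PBS library.

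Within the Treml4 gate, Eno3 followed Ace. In cells with a UMI of both Treml4 and Ace it had 164 CPM (interval 108 to 238) in 41 DT cells and 374 CPM (interval 338 to 412) in 158 PBS cells, and it held 29.3% of enolase UMIs in DT cells and 50% in PBS cells. In cells with Treml4 and no Ace it had 7.56 CPM (interval 2.77 to 16.4) in DT cells and 34.3 CPM (interval 24.3 to 47.1) in PBS cells. The 41 DT cells had a median of 3207 UMIs and the 158 PBS cells a median of 6436.5, and the part of this gap in depth was not tested.

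**Figure D4:**
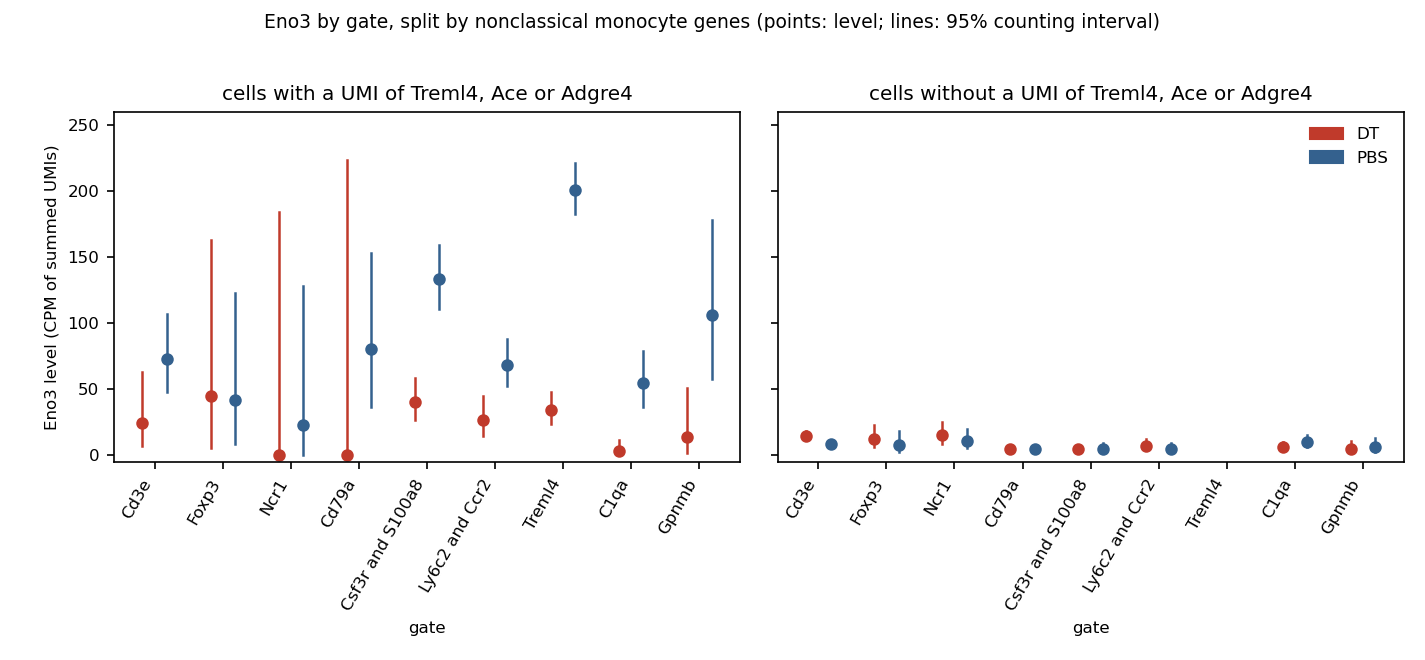
Eno3 level (y axis, CPM of summed UMIs) in 9 gates for cells with (left panel) and without (right panel) a UMI of Treml4, Ace or Adgre4; DT points stand left of PBS points and lines are 95% counting intervals. Without these genes every gate lies at or below 15.1 CPM in both libraries, and with them the PBS level reaches 201 CPM in the Treml4 gate, against 34.4 CPM in the DT library.

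Mif was the member called higher in the most gates, and its level differed with the sex-linked RNA of the cells. In the Ly6c2 and Ccr2 gate of the DT library, Mif had 298 CPM (interval 270 to 329) in 160 female-called cells and 134 CPM (interval 96.5 to 182) in 50 male-called cells. In the PBS library the order was turned round, with 37.6 CPM (interval 13.8 to 81.8) in 25 female-called cells and 181 CPM (interval 159 to 204) in 148 male-called cells. In each library the cells of the less frequent call in that gate had the lower Mif level. They also had the lower depth, with medians of 5963 against 7588 UMIs in the DT library and 6212 against 8373.5 in the PBS library. The part of depth was not tested. Neutrophils of the PBS library had 17.9 CPM (interval 0.453 to 99.6) in 10 female-called cells and 97.1 CPM (interval 81.9 to 114) in 290 male-called cells.

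Other gates did not all follow that order. In DT neutrophils Mif had 159 CPM (interval 130.2 to 192) in 111 female-called cells and 65.2 CPM (interval 47.9 to 86.7) in 218 male-called cells, although male-called cells were the more frequent. In the Foxp3 gate of the DT library it had 515 CPM (interval 376 to 690) in 12 male-called cells and 341 CPM (interval 295 to 392) in 79 female-called cells, and in the Cd79a gate 179.9 CPM (interval 149 to 215) in 228 male-called cells and 144 CPM (interval 123 to 167) in 309 female-called cells. In cells of neither call, Mif had 141 CPM (interval 126 to 157) in DT neutrophils and 51.4 CPM (interval 40.7 to 64.2) in PBS neutrophils. In the Cd3e gate the levels lay closer, at 297 CPM in DT cells and 251 CPM in PBS cells among male-called cells and 348 CPM in DT cells and 213 CPM in PBS cells among female-called cells. Hk3 in the Treml4 gate kept its direction among male-called cells, with 80.0 CPM in 21 DT cells and 44.1 CPM in 152 PBS cells.

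**Figure D5:**
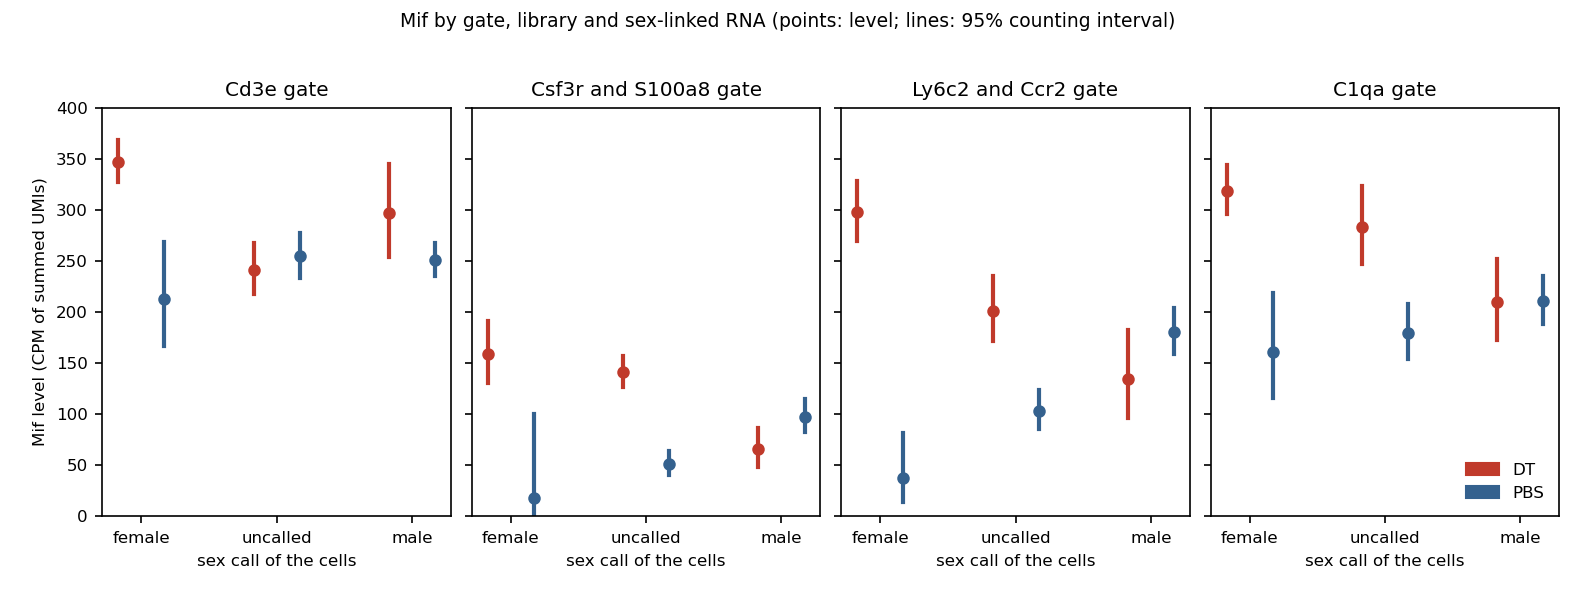
Mif level (y axis, CPM of summed UMIs) in 4 gates, by sex call of the cells (x axis: Xist without Y-linked UMIs, neither or both, Y-linked UMIs without Xist); DT points stand left of PBS points and lines are 95% counting intervals. Female-called and uncalled cells of the Csf3r and S100a8, Ly6c2 and Ccr2, and C1qa gates are higher in the DT library, and male-called cells are not.

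The promoters of 4 called members, chosen after their values were seen, are shown for their sequence, with each ACGTG or its reverse complement CACGT in capitals. ACGTG is the core of the hypoxia response element that HIF-1 binds. Mif, Pgk1 and Hk3 were called higher in DT cells of at least 1 gate, and Eno3 was called lower in 4. The sequences run 5′ to 3′ from 250 bases before to 50 bases after the RefSeq start site (GRCm38.p6): Mif on the minus strand of chr10:75860228-75860527, Pgk1 on the plus strand of chrX:106186850-106187149, Hk3 on the minus strand of chr13:55021336-55021635 and Eno3 on the plus strand of chr11:70656926-70657225.
Mif: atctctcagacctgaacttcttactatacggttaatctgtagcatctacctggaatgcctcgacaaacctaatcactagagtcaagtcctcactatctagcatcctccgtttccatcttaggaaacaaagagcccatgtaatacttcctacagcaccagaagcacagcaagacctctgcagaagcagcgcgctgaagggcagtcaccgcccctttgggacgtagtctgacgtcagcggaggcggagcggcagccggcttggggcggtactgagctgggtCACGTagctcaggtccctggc
Pgk1: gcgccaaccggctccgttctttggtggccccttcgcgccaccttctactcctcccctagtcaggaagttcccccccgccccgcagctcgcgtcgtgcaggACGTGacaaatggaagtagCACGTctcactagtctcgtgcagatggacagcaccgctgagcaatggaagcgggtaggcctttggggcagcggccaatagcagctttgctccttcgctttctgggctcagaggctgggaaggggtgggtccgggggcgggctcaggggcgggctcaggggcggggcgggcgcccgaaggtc
Hk3: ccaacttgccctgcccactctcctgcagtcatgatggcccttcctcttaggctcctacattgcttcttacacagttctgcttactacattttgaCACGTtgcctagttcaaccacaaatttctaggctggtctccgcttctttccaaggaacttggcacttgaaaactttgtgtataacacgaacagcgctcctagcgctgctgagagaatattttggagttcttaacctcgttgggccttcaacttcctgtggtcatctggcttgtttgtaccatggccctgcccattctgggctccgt
Eno3: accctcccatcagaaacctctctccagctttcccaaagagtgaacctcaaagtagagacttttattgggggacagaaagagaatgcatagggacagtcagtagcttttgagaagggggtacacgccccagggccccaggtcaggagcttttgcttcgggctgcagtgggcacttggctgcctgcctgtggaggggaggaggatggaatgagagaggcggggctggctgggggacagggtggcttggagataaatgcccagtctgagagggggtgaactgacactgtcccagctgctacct
Of the 33 members with a promoter in the table, 19 held ACGTG on either strand, against 19.7% of 27025 promoters of the same length. A CACGTG counts on both strands. Of the members called higher in DT cells of a gate, Mif, Pgk1, Hk3, Hk2 and Aldoc held ACGTG on either strand, and Hk1, Pfkl, Tpi1 and Pdk1 did not. The members called lower, Eno3, Slc2a6 and Pfkfb4, did not hold it. Among members not called, Ldha and Hif1a held it, while Pkm, Aldoa and Eno1 did not. A match is a run of letters and says nothing of binding in these cells.

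Other genes of glucose metabolism were read from lists chosen with earlier results of these data known, with the same call rule as the members. Of the 7 pentose phosphate genes, 1 was called in any gate, Rpia, lower in the Gpnmb gate. Of the 6 genes of pyruvate entry into mitochondria, Mpc1, a subunit of the pyruvate carrier, was called higher in the Ly6c2 and Ccr2 gate (ratio 1.75, interval 1.16 to 2.69). Pdha1 was called lower in the Foxp3 gate (ratio 0.625, interval 0.386 to 1.00) and Dlat in the Ncr1 gate (ratio 0.583, interval 0.316 to 1.04), both subunits of pyruvate dehydrogenase.

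Among trunk and branch genes, Slc16a6, a monocarboxylate transporter family gene, was called higher in the Ncr1 gate (ratio 2.52, interval 1.41 to 4.66) and in the Gpnmb gate (ratio 1.66, interval 0.961 to 2.92). Tigar, a fructose bisphosphatase, was called higher in the C1qa gate (ratio 2.22, interval 1.18 to 4.43), where Slc16a7 was called lower. Gpd1l was called higher in the Cd79a gate (ratio 1.70, interval 1.38 to 2.10) and Gpd2, the mitochondrial glycerol-3-phosphate dehydrogenase, in the Ly6c2 and Ccr2 gate (ratio 1.56, interval 1.08 to 2.26). Of the glycogen genes, Gys1, the glycogen synthase, was called higher in neutrophils (ratio 1.72, interval 0.941 to 3.26) and Pygl, a glycogen phosphorylase, lower in the Cd3e gate (ratio 0.442, interval 0.231 to 0.804).

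Of the hypoxia-linked genes, 5 of 15 measured in neutrophils were called higher, where 5.7% of all genes were. Among them was Egln3, an oxygen-sensing hydroxylase that HIF-1 induces, with 52.1 CPM in DT cells and 22.3 CPM in PBS cells (ratio 2.34, interval 1.77 to 3.13). The others were Ero1l, Ddit4, Ankrd37 and Hif1an, the last with an interval that held 1 (0.870 to 2.96). Calls differed between gates: 0 of 5 were called in either direction in the Foxp3 gate, and in the Cd79a gate 0 of 12 were called higher and 3 lower (Ero1l, Adm and Ankrd37). In the Treml4 gate 2 of 11 were called higher (Vegfa and Higd1a) and 2 lower (Ndrg1 and Epas1).

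Epas1, which encodes the related factor HIF-2, was called in opposite directions in different gates. Epas1 was called lower in the Treml4 gate (ratio 0.129, interval 0.0409 to 0.313). It was called lower too in the Ly6c2 and Ccr2 gate (ratio 0.336, interval 0.212 to 0.517). It had 16.5 CPM in DT neutrophils and 47.8 CPM in PBS neutrophils, and 17.2 CPM in DT T cells and 5.55 CPM in PBS T cells (ratio 3.09, interval 2.07 to 4.73). The 3 endothelial markers summed to 33.8 CPM in DT neutrophils and 83.5 CPM in PBS neutrophils. They summed to 18.8 CPM in DT cells and 94.0 CPM in PBS cells of the Treml4 gate. In the Ly6c2 and Ccr2 gate the sums were 34.0 CPM in DT cells and 55.5 CPM in PBS cells. In T cells the order was turned round, at 66.6 CPM in DT cells and 39.5 CPM in PBS cells. Their part in the Epas1 ratios was not tested. Vegfa, the angiogenic growth factor, was called higher in the Treml4 gate, on 51 DT and 15 PBS UMIs. It had 53.2 CPM in DT cells and 6.88 CPM in PBS cells there (ratio 7.73, interval 4.28 to 14.8). The make-up of that gate differed between the libraries, as given above, and its part was not tested. Vegfa was also called higher in the Ly6c2 and Ccr2 gate (ratio 2.40, interval 1.58 to 3.72) and in the C1qa gate (ratio 1.65, interval 1.28 to 2.15). In neutrophils its ratio was 0.997 (interval 0.790 to 1.26). The genes of these lists were not read by sex call or in cells with Ace. In the Cd3e gate Ddit4, a stress-induced mTOR inhibitor, had 72.7 CPM in DT cells and 46.2 CPM in PBS cells (ratio 1.58, interval 1.35 to 1.84), and Hif1a itself had 233 CPM in DT cells and 195 CPM in PBS cells (ratio 1.19, interval 1.10 to 1.29).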

How the data were processed

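Sorted CD45+ lung leukocytes were sequenced as 1 library per group, with 4 mice per group in the design text. Per the submitters' processing notes, the authors used STAR, Partek and Seurat with the genome build mm10; no source used here gives settings, annotation or the handling of reads that match several genes. The deposited values are log2 of CPM (counts per 1000000) plus 1, per cell. Each cell's smallest step gave back whole UMI counts, which were used in place of the deposited log2 values for sums; the design had been written for UMI counts. No column was left unmapped.

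Cells with at least 500 UMIs, at least 200 genes and at most 10% mitochondrial UMIs were kept. No doublet caller was run. Cells passing gates of 2 lineages were left out, and the mononuclear gates were allowed to overlap. UMIs were summed per gate and library. Poisson, Clopper-Pearson and conditional binomial intervals were exact at 95%, and cover counting error only. Log2 ratios had 5 CPM added. A call is a ratio of at least 1.5 either way among genes with at least 50 UMIs, in gates with at least 100 cells in each library. Named members had at least 50 UMIs, an interval without 1 and a ratio of 1.25 or more either way, up to 5 each way per gate. Isoform shares were read in every gate where the isoform held at least 10% of its family in a gate with at least 50 family UMIs. The shares of Ldhb and Aldoc were read outside this rule. With 1 library per group no test was possible.

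The members, gene lists and gates were chosen with earlier results of these data known. Promoters came from RefSeq (GRCm38.p6). Alternatives changed the cell filters, gates, scaling, added CPM, thinning, cell weights and sex call. The count steps were tested on simulated data. Python 3.11.15 with numpy 2.4.6, scipy 1.17.1 and pandas 2.3.3 was used.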

Additional observations from a re-analysis of the deposited data

How the results depend on the processing

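The 39 named ratios gave 496 values under alternatives, of which 73 moved outside their counting interval and 21 turned round. The 14 isoform shares followed gave 156 values, of which 40 moved outside theirs. The median over members was below 0 in 7 of 10 gates among male-called cells and in 0 of 10 among all cells. Over all genes the median among male-called cells lay between -0.12 in neutrophils, where that over members was -0.002, and 0.06 in the Cd79a gate. The causes were not tested. Each group is 1 library, so the spread between mice is unknown. Cells were few in the Marco gate (19 DT and 51 PBS cells) and among female-called PBS cells. No paired analysis was possible because each group holds 1 library and no result comes from a test. Eno3 ratios were below 1 under each alternative that gave one in its 4 called gates, but female-called cells held too few Eno3 UMIs for a ratio, and there the intervals of both libraries overlapped in all 4.

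Among male-called cells the median log2 ratio over members was -0.32 in the Ly6c2 and Ccr2 gate and -0.22 in the Cd3e gate. Over all genes it was -0.01 in each. Ratios turned round in neutrophils for Mif (0.672), Pgk1 (0.847), Hk2 (0.915) and Slc2a6 (1.02), in the Ly6c2 and Ccr2 gate for Mif (0.744), Pfkl (0.643), Pgk1 (0.629) and Hif1a (0.835), and in the C1qa gate for Mif (0.996). DT neutrophil shares were 56.9% for Slc2a3, 66.4% for Hk3 and 17.1% for Hk2. The DT T cell shares were 83.8% for Pfkp and 2.04% for Ldhb, and the PBS Treml4 gate share of Eno3 was 32.0%.

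Among female-called cells the median log2 ratio over members was 0.57 in the Cd3e gate and 1.10 in the Treml4 gate. Over all genes it was 0.12 in the Cd3e gate and 0.13 in the Treml4 gate. Ratios turned round for Ldha in the Cd79a gate (1.11), Hk2 in neutrophils (0.877), Slc16a3 in the Treml4 gate (1.18) and Aldoc in the Gpnmb gate (0.753). Neutrophil shares were 43.6% in DT cells and 31.2% in PBS cells for Slc2a3, 49.6% in DT cells and 41.7% in PBS cells for Hk3, and 96.4% in DT cells and 100.0% in PBS cells for Slc16a3. PBS T cell shares were 72.0% for Pfkp and 11.5% for Ldhb, and Eno3 in the Treml4 gate held 3.29% in DT cells and 11.1% in PBS cells.

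The Eno3 share in the Treml4 gate was 29.3% in DT cells and 50% in PBS cells with Ace (an alternative chosen after seeing the data, where Hif1a turned round to 0.651), 16.9% in DT cells and 43.8% in PBS cells with at least 2 UMIs of each gate gene, 17.2% in DT cells and 44.7% in PBS cells thinned to 1000 UMIs, and 19.9% in DT cells and 41.8% in PBS cells with each cell weighted the same. In PBS cells it was 31.4% with no exclusion and 38.5% without the 5% of cells with the most UMIs.

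Thinned cells had Pfkp shares of 69.8% in DT T cells and 70.8% in PBS T cells, Slc16a3 shares of 99.8% in DT neutrophils and 100.0% in PBS neutrophils, and a Slc16a3 ratio of 0.787 in the C1qa gate. With each cell weighted the same, Slc16a3 held 99.8% in DT neutrophils and 99.8% in PBS neutrophils, and Ldhb held 3.56% in DT T cells and 4.57% in PBS T cells. With no exclusion, DT neutrophil shares were 47.8% for Slc2a3 and 98.9% for Slc16a3, and the Slc16a3 ratio in the Treml4 gate was 1.16. Without cell cycle cells, PBS shares were 5.01% for Ldhb and 99.6% for Slc16a3, and without the 5% of cells with the most UMIs they were 4.29% and 99.7%. Differences of mean deposited log2 values gave a Marco median of 1.48 and, as ratios, 0.888 for Pfkp in the Cd79a gate, 0.804 for Tpi1, 0.757 for Hif1a and 0.993 for Pkm in the Treml4 gate, and 0.994 for Aldoc in the Gpnmb gate.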
